A study of Oryza sativa with 14 samples.

Results

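The heat response difference is the heat response of the htg3 mutant lines minus that of wild type (WT) rice, taken gene by gene, and it was called for 33 of the 28823 genes tested, out of 55986 in the table. Its members were chosen by rule: all 14 libraries entered 1 fit, the log2 change after heat was taken in WT and in the mutant lines cr12 and cr2 with equal weight on each line, and the WT change was subtracted. A called gene is one with a Benjamini-Hochberg adjusted p under 0.05 in edgeR's quasi-likelihood test of that difference. Called genes were then sorted by their response into weaker, stronger, opposite and changed-baseline groups, and that sorting is a description.

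The series, named as a search for genes downstream of HTG3, holds leaf RNA of rice seedlings at the 4-leaf stage in the ZH11 background. Untreated WT and WT given heat at 42 °C for 0.5 h have 3 libraries each. The htg3 mutant lines htg3_cr12 and htg3_cr2, called transgenic in the labels, have 2 untreated and 2 heated libraries each. The labels do not give the mutant alleles or the locus of HTG3, so the targeted gene was not checked here. The labels do not state whether replicates are different plants, and the p-values therefore speak of variation among the libraries, which may be technical.

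Plants answer sudden heat within minutes through heat shock factors, transcription factors that switch on genes for chaperones. Small heat shock proteins hold unfolding proteins in solution, HSP70 and HSP90 chaperones refold them, and HSP100 proteins pull them out of aggregates. Jasmonate, a stress hormone, is held in check by JAZ repressors, and jasmonate genes also react to heat in leaves. A mutant can change such a response by reaching another level after heat or by starting from another level before it, and the difference of log2 changes counts both alike.

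The libraries held 92.0 M to 99.4 M estimated counts (M for 1e6). Low values gather at multiples of 4, so 1 sequenced fragment was taken as about 4 counts, and the libraries as 23.0 M to 24.9 M fragments. The photosynthetic list, expected to be high in leaf, had 19 tested genes that summed to between 27311 and 133185 CPM (counts per M of the TMM-scaled library size) in every library. Of 3 meristem genes OSH1 and OSH15 had no count in 13 and 10 of 14 libraries, and FON1 had 717 to 3032 counts in each. Of 4 root genes LSI2 had no count in any library, while LSI1 had 463 to 2425, NRAMP5 949 to 3421 and the fourth 8 to 426 counts. The 12 genes of dividing cells were detected in every library. These are bulk leaves, in which fewer cells of a type and less RNA per cell cannot be told apart. One untreated library stood apart on heat genes: cr12_control replicate 2 was the highest of the 7 untreated libraries for 14 of 20 small heat shock protein genes, and the lists of heat genes are given with and without it. For the photosynthetic list cr2_control replicate 2 was the highest of the untreated libraries for 18 of 19 genes.

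Heat changed most genes in both genotypes, and few genes passed the test of a difference between them. The heat response was called for 14722 genes in WT (51.1% of those tested) and for 16163 in the htg3 lines (56.1%). The difference was called for 33 genes (0.114%), with 20 higher in the lines (0.0694%) and 13 lower (0.0451%). The called differences ran from 0.54 to 3.53 in absolute log2, with a median of 1.21. All 33 adjusted p-values lay between 0.0295 and 0.0496, and 10 genes shared the smallest. At an unadjusted p under 0.05 there were 3987 genes (13.8%), 1906 higher (6.61%) and 2081 lower (7.22%). Over all tested genes the median difference was -0.02, with quartiles at -0.25 and 0.31.

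The number of calls moved with the tool and with single libraries. DESeq2 called 1249 of 22536 genes (5.54%), 510 higher (2.26%) and 739 lower (3.28%), and they included all 33. limma voom called 10, of which 9 were among the 33. With RLE size factors in place of TMM there were 12 calls, 3 higher and 9 lower, and with library size alone 40, 28 higher and 12 lower. Leaving out an untreated WT library left 1, 0 or 5 calls (without replicate 1, 2 or 3), and without replicate 2 the count of 0 in edgeR stood beside 3515 genes at an unadjusted p under 0.05. The calls were 13 without cr12_control replicate 2, 3 and 2 without cr2_control replicate 1 and 2, and 5 without WT_heat replicate 1. They were 84 without WT_heat replicate 3, 15 and 1 without cr12_heat replicate 1 and 2, and 15 and 12 without cr2_heat replicate 1 and 2. Without cr12_control replicate 1 or WT_heat replicate 2 they were 36 and 41. None of the 33 was called in all 14 of these fits, LOC_Os11g09160 being called in 10 of the 14 and LOC_Os03g60760 in 9. The 33 kept the sign of their difference wherever they were tested. They were chosen by this difference and the fits share most libraries, so nothing is read from the kept sign.

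**Figure D1:**
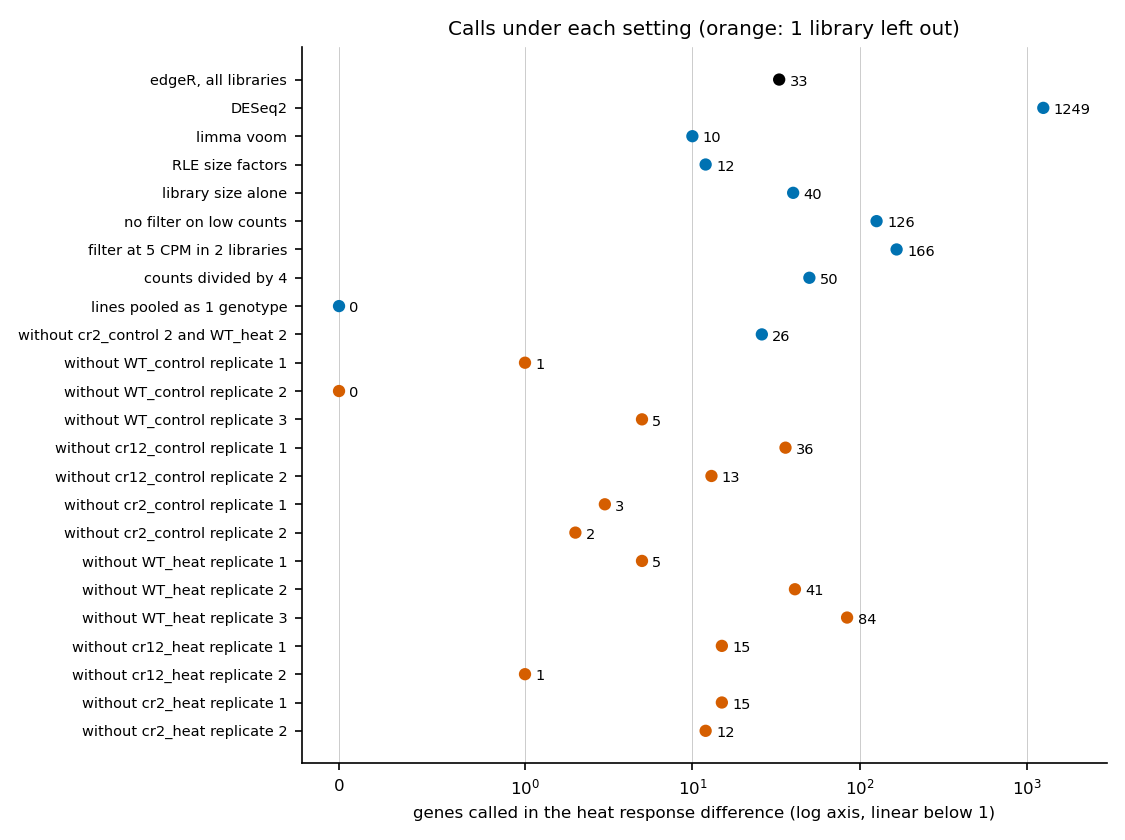
Number of genes called in the heat response difference (x axis, logarithmic, linear below 1) under each setting (y axis). The black point is the fit to all 14 libraries with 33 calls, blue points are other tools, scalings and filters, from 0 to 1249, and orange points leave out 1 library each, from 0 to 84.

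The 33 genes sort into 13 with a weaker response in the lines, 5 with a stronger one, 2 with an opposite one and 13 with a changed baseline. A gene counted as changed-baseline where the untreated difference between the lines and WT was itself called and larger in absolute log2 than the difference after heat. Of the genes left after that, opposite ones had a called response of opposite sign in each genotype, and the rest were weaker or stronger by the absolute log2 change. The heat response was called in WT for 28 of the 33, in the lines for 27, and in both for 22. Over all tested genes it was called for 51.1% in WT and 56.1% in the lines. The contrast that chose the 33 is built from these heat changes, so nothing is read from these counts. The files and the name table pair none of the 33 IDs with a symbol, so they are given by locus ID and without a role. By the chromosome in the ID, 7 of the 33 (21.2%) lie on chromosome 3, which holds 12.2% of tested genes. Chromosomes 1 and 4 have 5 each (15.2%) and hold 13.9% and 8.86% of tested genes. Their counts were higher than usual, with a median over genes of 1856 counts per library against 686 over all tested genes, and their median SE was 0.17 against 0.27.

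**Figure D2:**
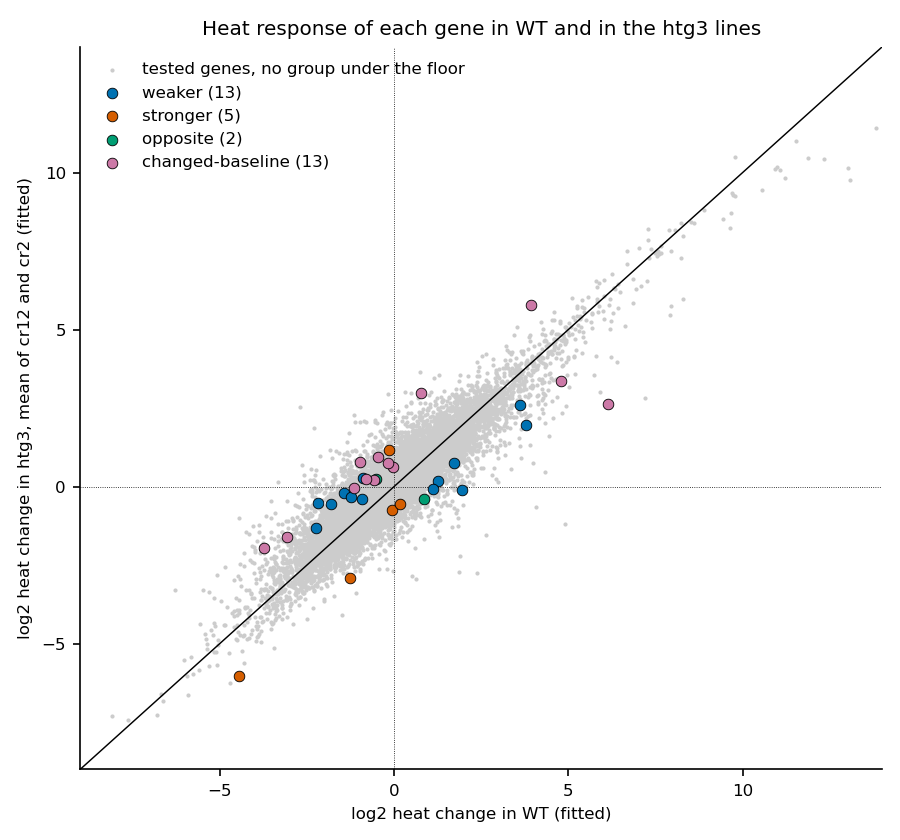
Fitted log2 heat change in WT (x axis) against the mean fitted log2 heat change in cr12 and cr2 (y axis). Grey points are tested genes with no group under the floor of 3 fragments, coloured points are the 33 called genes by class, and the line marks equal responses, from which the called genes lie 0.54 to 3.53 away in the vertical direction.

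With changed-baseline and opposite genes set aside, 6 genes that heat raised in WT had a smaller rise in the lines or none that was called. The differences ran from -2.08 to -0.97. LOC_Os12g07970 stood at 14.9, 15.3 and 16 CPM in WT, 5.67 and 5.03 CPM in cr12 and 3.42 and 5.89 CPM in cr2 after heat. Before heat it stood at 4.35, 3.39 and 4.12 CPM in WT, 4.98 and 7.15 CPM in cr12 and 4.56 and 5.09 CPM in cr2. Every heated WT library lay above every other library, the untreated lines stood above untreated WT, and the heated lines overlapped their own untreated libraries. Its log2 heat change was 1.96 ± 0.20 in WT and -0.12 ± 0.17 in the lines, a difference of -2.08 ± 0.26 (adjusted p = 0.0295).

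LOC_Os03g60760 rose in both genotypes, from 1.48, 1.65 and 1.65 CPM to 18.8, 23.6 and 23.8 CPM in WT. In cr12 it went from 1.49 and 1.67 CPM to 8.11 and 9.71 CPM, and in cr2 from 2.19 and 2.81 CPM to 5.39 and 8.05 CPM. Every heated line library stood below every heated WT library, while untreated cr12 overlapped untreated WT and untreated cr2 stood above both. The log2 heat change was 3.79 ± 0.19 in WT and 1.96 ± 0.15 in the lines, a difference of -1.83 ± 0.23 (adjusted p = 0.0295). LOC_Os11g09160 reached 94.4, 95.5 and 97.2 CPM in heated WT, 57.2 and 60.7 CPM in heated cr12 and 45.3 and 50.3 CPM in heated cr2. Its untreated libraries spanned 6.76 to 10.8 CPM, with cr12 above WT and cr2 overlapping WT, and after heat both lines were below WT. The difference was -1.03 ± 0.12, on a log2 heat change of 3.62 in WT.

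LOC_Os10g36200 rose in WT, from 12.4, 14.8 and 12.2 CPM to 29.8, 26.9 and 28.3 CPM. The heated lines had 13.7 and 12.2 CPM (cr12) and 17.5 and 13.4 CPM (cr2), against 14.1 to 15.8 CPM in the same lines before heat. LOC_Os09g09930 rose from 96, 108 and 94.8 CPM to 234, 274 and 208 CPM in WT. The lines parted here: cr12 went from 142 and 161 CPM to 114 and 118 CPM, and cr2 from 94.3 and 71.1 CPM to 147 and 124 CPM. The differences of both genes were -1.17 ± 0.16 and -1.1 ± 0.17. The sixth gene of this group, LOC_Os01g66890, had a difference of -0.97 ± 0.16 and did not meet the rule for naming by size, so it is named after its values were seen.

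With the same genes set aside, 7 genes that heat lowered in WT had a smaller fall in the lines or none that was called. Their differences ran from 0.54 to 1.65. LOC_Os04g44354 fell in WT from 20.2, 14.5 and 17.4 CPM to 4.41, 5.3 and 5.28 CPM. In cr12 it went from 15 and 13.5 CPM to 8.97 and 12.9 CPM and in cr2 from 14.3 and 14.2 CPM to 8.63 and 8.91 CPM. Before heat cr12 overlapped WT and cr2 stood below it, and after heat the lines stood above WT in every library, with a difference of 1.25 ± 0.20 (adjusted p = 0.0496). LOC_Os09g28340 fell in WT from 5.36, 5.09 and 5.34 CPM to 3.1, 2.7 and 2.74 CPM. The heated lines had 6.28 and 7.35 CPM (cr12) and 7.09 and 6.17 CPM (cr2), above every untreated WT library. Its log2 heat change of 0.27 ± 0.11 in the lines was not called (adjusted p = 0.0553), and the difference was 1.16 ± 0.17.

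LOC_Os01g69270 fell in both genotypes, to 8.27, 7.33 and 8.28 CPM in WT against 10.8 and 12 CPM in cr12 and 11.1 and 13.2 CPM in cr2. Before heat WT was the higher, at 42.1, 35.5 and 35.6 CPM against 26.2 to 34.2 CPM in the lines, so the order turned over with heat. LOC_Os10g14011 fell in WT from 14, 14.7 and 13.5 CPM to 5.47, 6.07 and 6.37 CPM. In cr12 it stood at 11.2 and 9.96 CPM before and 10.03 and 11.3 CPM after heat, and in cr2 at 14 and 16.1 CPM and 8.89 and 9.75 CPM. The differences were 0.93 ± 0.14 and 0.89 ± 0.14. The other 3 genes of this group, LOC_Os01g12420, LOC_Os01g49830 and LOC_Os04g45650, differed by 1.65, 1.21 and 0.54, and are named after their values were seen.

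The stronger class, with changed-baseline and opposite genes set aside, held 4 genes lowered more in the lines and 1 raised more. Whether stronger or weaker responses were more frequent depended on the tool, as DESeq2 sorted 442 genes as stronger and 416 as weaker. With 1 library left out, edgeR gave 0 to 35 stronger and 0 to 27 weaker genes. LOC_Os07g24230 stood before heat at 40.7, 32.2 and 31.9 CPM in WT, 43.5 and 43.2 CPM in cr12 and 38.7 and 39.2 CPM in cr2. After heat it stood at 17.4, 15.2 and 11 CPM in WT, 4.86 and 4.68 CPM in cr12 and 5.22 and 7.3 CPM in cr2. Before heat cr12 stood above WT and cr2 overlapped it, and every heated line library lay below every heated WT library. The log2 heat change was -1.26 ± 0.17 in WT and -2.91 ± 0.16 in the lines, a difference of -1.65 ± 0.22 (adjusted p = 0.0295).

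LOC_Os05g13360 was nearly emptied by heat in both genotypes, from 19.8, 19.8 and 18.9 CPM to 1.18, 0.752 and 0.742 CPM in WT. In cr12 it went from 15.8 and 15.9 CPM to 0.172 and 0.235 CPM, and in cr2 from 13.3 and 17.6 CPM to 0.281 and 0.266 CPM. The difference was -1.6 ± 0.25 on the log2 scale. In CPM the sign is the other way, since WT lost 18.6 CPM and the lines lost 15.4. LOC_Os06g39690 and LOC_Os05g45350 had no called heat response in WT and fell in the lines by 0.55 and 0.76 on the log2 scale. LOC_Os06g39690 stood at 145, 149 and 133 CPM in WT, 102 and 97.9 CPM in cr12 and 96.6 and 96.7 CPM in cr2 after heat, with every line library below WT, and at 120.2 to 158 CPM in the untreated libraries.

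LOC_Os07g30760 was the gene of the stronger class that was raised more in the lines. It stood after heat at 8.53, 8.96 and 7.38 CPM in WT, 18.6 and 14.2 CPM in cr12 and 30.04 and 28.8 CPM in cr2. Its untreated libraries spanned 7.16 to 11.4 CPM, with cr12 overlapping WT and cr2 above it. All heated line libraries stood above all heated WT libraries, those of cr2 highest. The WT change of -0.15 ± 0.16 was not called (adjusted p = 0.463), the change in the lines was 1.15 ± 0.14, and the difference was 1.3 ± 0.21 (adjusted p = 0.0496).

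With changed-baseline genes set aside, some of which also moved in opposite directions, 2 genes were sorted as opposite. LOC_Os03g09250 rose in WT from 292, 282 and 237 CPM to 417, 571 and 480.1 CPM. It fell in cr12 from 396 and 348 CPM to 268 and 226 CPM, and in cr2 from 325 and 296 CPM to 271 and 259 CPM. The lines stood above WT in every untreated library and below it in every heated one, with a difference of -1.27 ± 0.17 (adjusted p = 0.0295). LOC_Os02g16030 did the reverse, falling in WT from 24, 21.8 and 22.4 CPM to 14.5, 15.9 and 17 CPM. It rose in cr12 from 17.1 and 15.5 CPM to 18.6 and 20.02 CPM and in cr2 from 19.7 and 19 CPM to 21.8 and 24.1 CPM, a difference of 0.77 ± 0.12. The rise in the lines was 0.25 ± 0.08 (adjusted p = 0.0199).

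**Figure D3:**
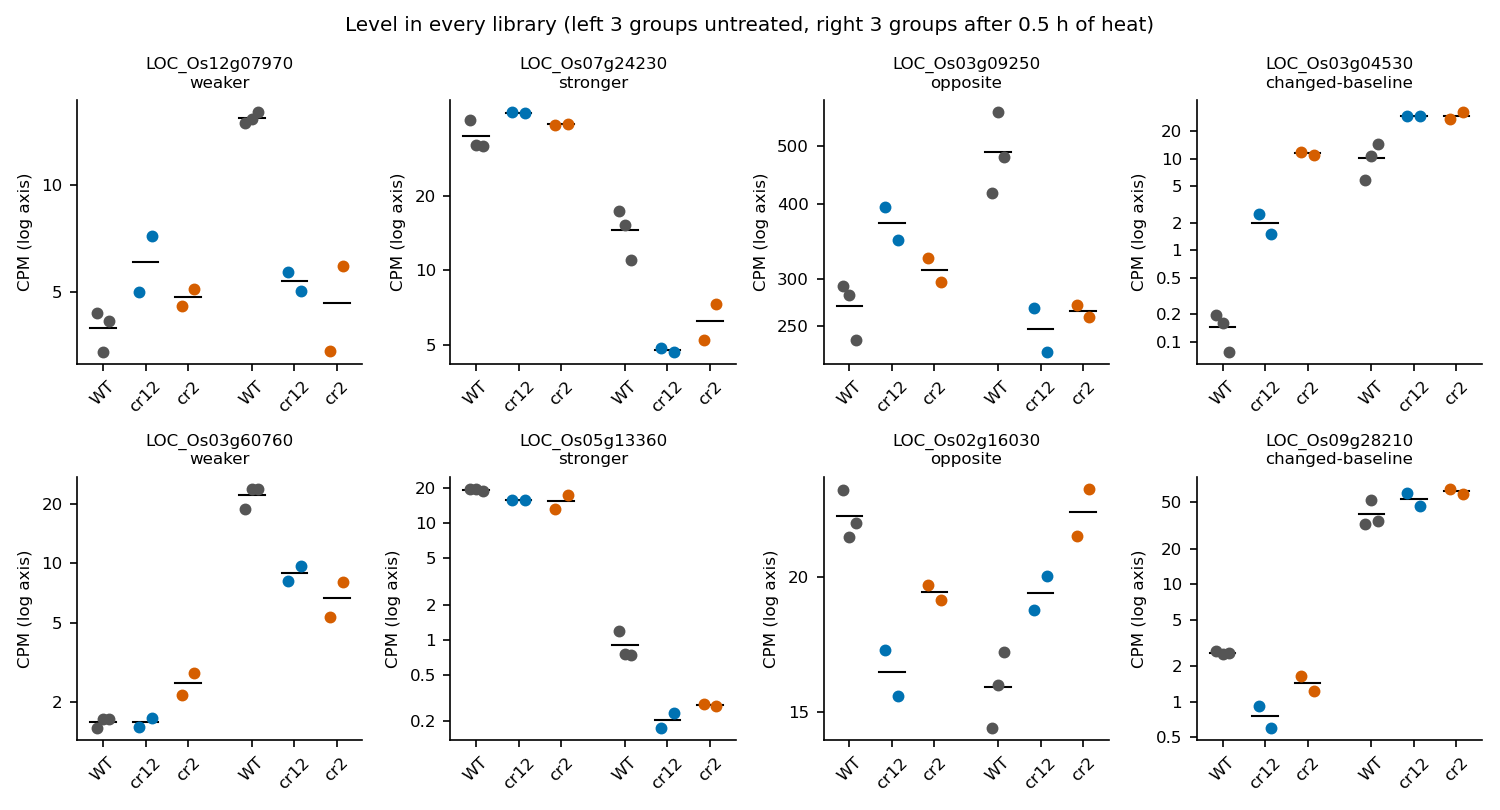
CPM of 8 called genes (panels) in every library on logarithmic axes, with untreated groups on the left and heated groups on the right of each panel. Points are libraries, and horizontal bars are group means (3 WT, 2 cr12 and 2 cr2 libraries per treatment). The heated WT points stand apart from the heated line points in every panel except LOC_Os09g28210. Called genes were chosen by a contrast of these groups. Those named by size also needed no overlap with WT in the group pair that differs most. Nothing is therefore read from this separation.

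In the 13 changed-baseline genes the genotypes already differed before heat, and for 7 of them the difference after heat was not called. LOC_Os03g04530 had the largest difference of all 33. It stood before heat at 0.195, 0.161 and 0.0774 CPM in WT, 2.51 and 1.5 CPM in cr12 and 11.9 and 11 CPM in cr2. After heat it stood at 5.91, 10.6 and 14.3 CPM in WT, 29.5 and 29.2 CPM in cr12 and 26.9 and 32.1 CPM in cr2. Lines were above WT in both treatments, and the 2 lines differed before heat by a wide margin but not after it. The untreated difference was 5.05 ± 0.38 and the heated difference 1.52 ± 0.28, so the log2 heat change was 2.62 in the lines against 6.15 in WT (difference -3.53 ± 0.46, adjusted p = 0.0295). In CPM the lines gained more than WT, 22.7 CPM against 10.1.

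LOC_Os09g28210 stood lower in the untreated lines, with 0.917 and 0.591 CPM (cr12) and 1.64 and 1.23 CPM (cr2) against 2.71, 2.53 and 2.58 CPM in WT. After heat it stood at 32.9, 52.6 and 34.8 CPM in WT, 60.6 and 46.3 CPM in cr12 and 65.5 and 59.5 CPM in cr2, with cr12 overlapping WT and cr2 above it. The difference was 1.85 ± 0.27, made of an untreated difference of -1.32 ± 0.20 and a heated one of 0.53 ± 0.18. LOC_Os06g23775 was also lower in the untreated lines, with levels of 12.2, 12 and 12.3 CPM in WT, 8.37 and 7.71 CPM in cr12 and 7.74 and 7.63 CPM in cr2. Its log2 heat change was not called in WT (-0.17 ± 0.09, adjusted p = 0.148) and was 0.74 ± 0.08 in the lines.

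In 3 further named genes the lines were below WT before heat and above it after. LOC_Os04g49757 fell in WT from 28.2, 18.9 and 23 CPM to 2.1, 1.46 and 1.71 CPM. In cr12 it fell from 11.9 and 15.2 CPM to 3.33 and 3.06 CPM and in cr2 from 12.3 and 9.04 CPM to 3.15 and 2.77 CPM. The lines and WT did not overlap in either treatment, and the difference was 1.76 ± 0.25. LOC_Os10g37340 and LOC_Os03g14730 fell in WT by 0.97 and 0.81 and rose in the lines by 0.77 and 0.25 on the log2 scale, differences of 1.74 ± 0.28 and 1.06 ± 0.15. The first untreated WT library of LOC_Os10g37340, at 157 CPM against 90.9 and 91.3 CPM, stood above the other 2. The remaining 7 changed-baseline genes, 1 lower in the difference and 6 higher, are counted and not described.

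After heat the 4 line libraries were all above or all below the 3 WT libraries for 27 of the 33 genes. Over all tested genes, 2526 (8.76%) had every heated line library lower than WT and 2518 (8.74%) had every one higher. The same contrast chose the 33, so nothing is read from their share. Directly tested, the untreated levels differed between the lines and WT for 15 of the 33 and the heated levels for 26, against 885 (3.07%) and 2077 (7.21%) of all tested genes. The contrast that chose the 33 is the heated difference minus the untreated one, so nothing is read from these shares either.

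Each line was also set against WT alone, and both comparisons share the 6 WT libraries. For cr12 the difference was called for 154 genes (0.534%), 90 higher and 64 lower. For cr2 it was called for 3 (0.0104%), which were LOC_Os03g04530, LOC_Os03g60760 and LOC_Os07g48280. Over the 154 genes called in cr12 the median absolute difference was 1.18 in cr12 and 0.51 in cr2, which is read with the choice of these genes by their cr12 values. Of the 33 genes, 26 were called in cr12 and 2 in cr2, and the difference was larger in absolute value in cr12 for 22. All 33 had the same sign in both lines, having been chosen on the mean over both. With only the groups of cr12 and WT in the fit cr12 had 8 calls, and with only those of cr2 and WT cr2 had 0 in edgeR, beside 2877 genes at an unadjusted p under 0.05. limma voom called 175 and 0, and DESeq2 1629 and 519. The cr12 count fell to 0 on leaving out replicate 1 or 2 of WT_control, or the first heated WT library, and to 4 without replicate 3 of WT_control. It was 60 and 7 without replicate 1 and 2 of cr12_control, 95 without cr2_control replicate 2, 84 and 2 without cr12_heat replicate 1 and 2, and 100 without either cr2_heat library.

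**Figure D4:**
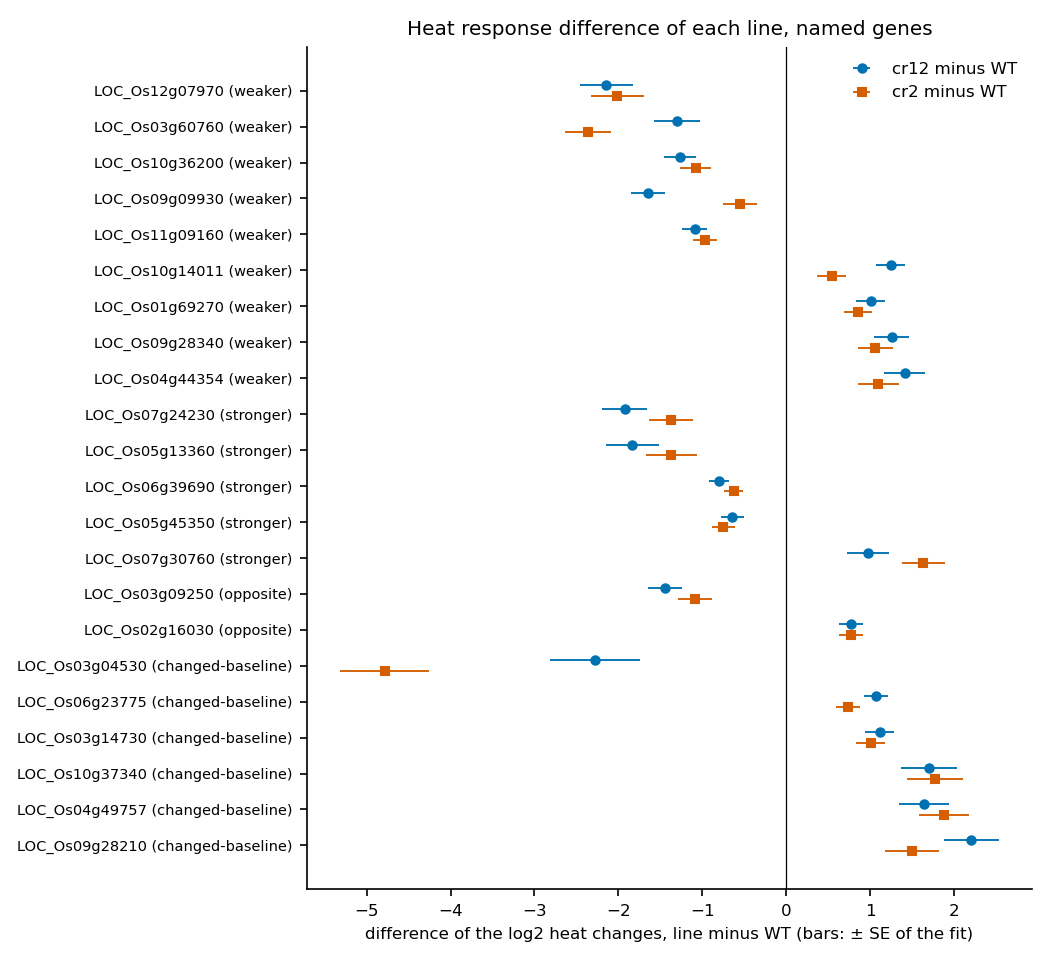
Difference of the log2 heat changes, line minus WT (x axis), for the 22 genes named by rule (y axis, class in brackets), with cr12 as blue circles and cr2 as orange squares. Bars are the approximate SE of the fit, and both lines share the WT libraries. LOC_Os03g04530, LOC_Os03g60760 and LOC_Os09g09930 are among those whose lines lie farther apart than their bars.

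Whether the lines differ from each other was tested as a contrast between their heat changes, which does not use the WT levels. One gene was called (0.00347%), LOC_Os07g48280, with a cr12 minus cr2 difference of 1.49 ± 0.15 (adjusted p = 0.0108). It rose in cr12 from 17.2 and 16.9 CPM to 29.2 and 34.4 CPM and fell in cr2 from 32.5 and 34.4 CPM to 21.9 and 22.4 CPM. In WT it rose from 17, 17.7 and 16.2 CPM to 23.8, 26.1 and 24.7 CPM, so untreated cr2 alone stood above 30 CPM before heat. Its mean difference from WT over both lines was -0.40 ± 0.11 and was not called (adjusted p = 0.144). None of the 33 was called between the lines by edgeR. Of the 33, 10 reached an unadjusted p under 0.05 in this contrast, against 3304 of all 28823 tested genes. The 10 were led by LOC_Os03g25050 at -2.22 in cr12 and -0.65 in cr2, a gene singled out after its values were seen. limma voom called 2 genes between the lines and DESeq2 545 over all genes.

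Of 173 listed genes of heat, hormone, leaf and stress pathways, 168 were tested and edgeR called none in the heat response difference. At an unadjusted p under 0.05 there were 28 (16.7%, against 13.8% of all tested genes). limma voom called 0, and DESeq2 called 12 of 161 (7.45%, against 5.54% of all). Leaving out cr12_control replicate 1 gave 3 listed calls and leaving out WT_heat replicate 3 gave 1. The lists are therefore described by how many members lay on either side of 0 and by their median, beside the median of -0.02 over all tested genes. Examples are the members with the most counts, and any other member named was chosen after its values were seen.

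**Figure D5:**
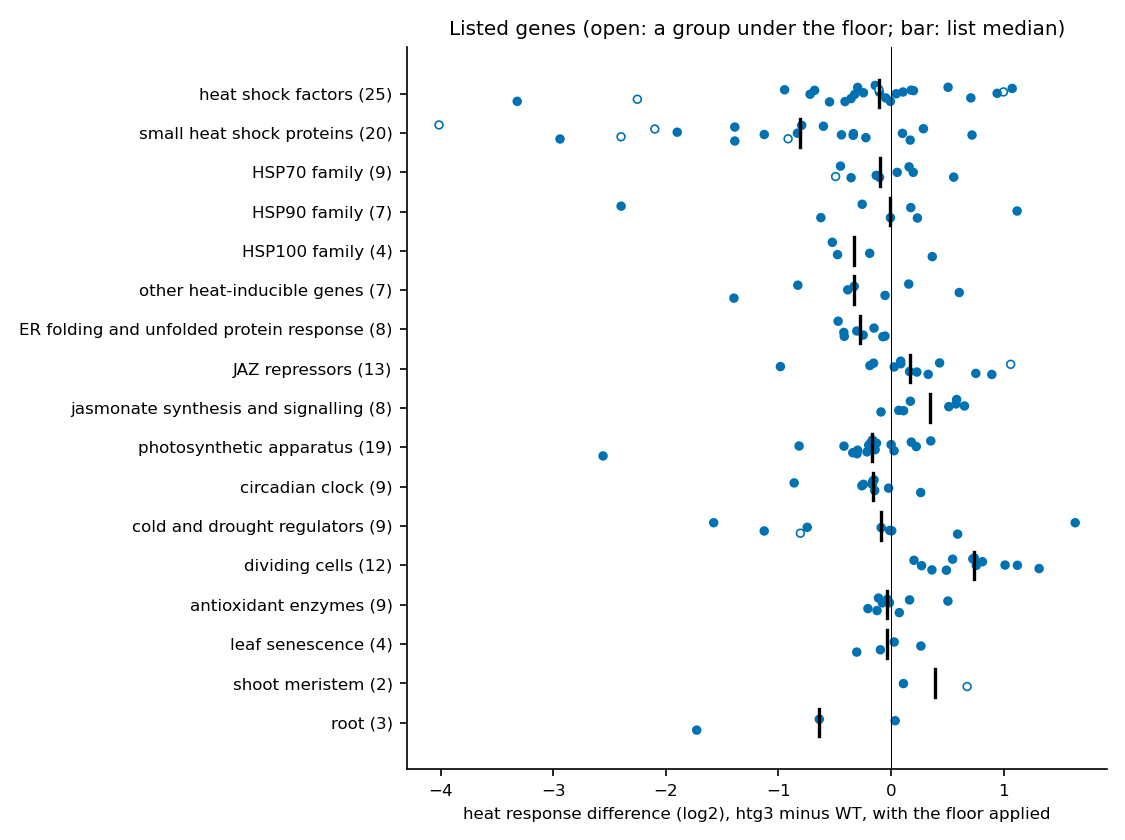
Heat response difference, htg3 minus WT, of each tested listed gene (points; x axis in log2, with groups under 3 fragments set at that floor) by list (y axis, number tested in brackets). Vertical bars are list medians, open points are genes with a group under the floor, and edgeR called no point, while DESeq2 called 12 of these genes. All 12 dividing-cell genes lie right of 0 and 16 of 20 small heat shock protein genes lie left of it.

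Heat shock factors, the regulators of the chaperone genes, lay on both sides, 16 lower and 9 higher of 25, with a median of -0.14. Without cr12_control replicate 2 there were 13 lower and 12 higher, with a median of -0.04. The median was also -0.04 without cr12_control replicate 1 or cr2_control replicate 1 and -0.07 without WT_control replicate 1, and it was -0.25 without cr2_control replicate 2, -0.24 without cr12_heat replicate 1 and -0.32 without cr2_heat replicate 2. HSFA2c, an A2-class activator of chaperone genes, had a difference of -0.01 ± 0.17 on a heat change of 6.32 in WT. HSFB2c, of a class without the usual activation domain, had 0.51 ± 0.18 (adjusted p = 0.229). HSFA2a, which heat took to 1207, 1324 and 1354 CPM in WT, 1758 and 2072 CPM in cr12 and 1189.9 and 1221 CPM in cr2, had -3.33 ± 1.45 (adjusted p = 0.331). Before heat it stood at 0.287, 0.161 and 0 CPM in WT, 0 and 6.69 CPM in cr12 and 1.25 and 0.581 CPM in cr2, with cr12_control replicate 2 above the rest. Without that library the fitted difference was 2.32 ± 2.06, with a cr12 library at 0 left in its group, so its direction is not given.

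Small heat shock protein genes lay lower in 16 of 20 members, with a median of -0.81. The heat response was called for all 20 in both genotypes (against 51.1% of all tested genes in WT and 56.1% in the lines), with a median log2 heat change of 9.70 in WT and 8.84 in the lines. LOC_Os03g16020 stood after heat at 5474, 7060.2 and 5872 CPM in WT, 7171 and 8711 CPM in cr12 and 4585 and 4726 CPM in cr2. Before heat it stood at 1.57, 1.1 and 0.881 CPM in WT, 1.04 and 16.7 CPM in cr12 and 2.92 and 1.39 CPM in cr2. After heat cr12 stood above WT and cr2 below it, and before heat cr12_control replicate 2 stood far above the next highest library, cr2_control replicate 1. LOC_Os01g08860 and LOC_Os03g16030 showed the same single high library, at 17.9 and 12.9 CPM against at most 6.25 and 2.90 CPM in the other untreated libraries. Their differences were -1.9 ± 0.87, -0.83 ± 0.60 and -0.79 ± 0.70, and without cr12_control replicate 2 they were -0.35 ± 0.36, 0.06 ± 0.30 and 0.44 ± 0.24. Without that library the list held 10 lower and 10 higher and its median was -0.04, and without cr2_control replicate 1 the median was -0.45.

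The small heat shock protein gene with the smallest adjusted p in edgeR was LOC_Os01g04380, at -1.39 ± 0.25 (adjusted p = 0.0577; 0.0446 for cr12 alone). It stood after heat at 759, 934 and 1011 CPM in WT, 456 and 566 CPM in cr12 and 435 and 601 CPM in cr2, with every line library below WT, and before heat at 0.995 to 2.31 CPM. It lies among near-identical neighbours with which it may share reads. DESeq2 called 4 genes of this list lower, LOC_Os01g04380, LOC_Os06g11610, LOC_Os01g04340 and LOC_Os03g14180, the last 2 having no count in untreated WT.

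The other chaperone lists had medians between -0.33 and 0.05. HSP70 genes lay 4 lower and 5 higher (median 0.05, and -0.10 with groups under 3 fragments set at that floor), with the member of most counts, LOC_Os01g62290, at 0.20 ± 0.36, or 0.55 ± 0.27 without cr12_control replicate 2. With single libraries left out the HSP70 median ranged from -0.15 to 0.18 and that of HSP90 from -0.11 to 0.16, so no direction on the log2 scale is given for either. The heat change in CPM, on the mean over both lines, was lower than in WT for 8 of 9 HSP70 and 4 of 7 HSP90 genes. HSP90 genes lay 4 lower and 3 higher (median -0.01, of the other sign with library size alone, and 0.16 without cr12_control replicate 2). Single libraries stood apart here. LOC_Os08g39140 had 2247 CPM in cr2_heat replicate 2 against 10356 to 15487 CPM in the other heated libraries. LOC_Os09g30418 had 0 CPM in cr12_control replicate 2 and cr2_control replicate 2, against 121 to 140 CPM in the other untreated libraries. The HSP100 family, with HSP101 at -0.53 ± 0.75 and at 0.42 ± 0.54 without cr12_control replicate 2, lay 3 lower and 1 higher with a median of -0.33, which was 0.18 without the same library, -0.15 without cr2_control replicate 1 and -0.20 without cr2_heat replicate 1. Other heat-inducible genes lay 5 lower and 2 higher (median -0.33, and 0.13 without that library), with the peroxidase gene APX2 at -0.05 ± 0.22 and the co-chaperone gene FKBP62b at -1.4 ± 0.93, or 0.30 ± 0.47 without it. The median of this list was -0.06 without cr2_heat replicate 2, -0.54 without cr2_heat replicate 1 and -0.22 without WT_heat replicate 2. Its member MBF1c had 37.4 CPM in cr2_heat replicate 2 against 874 to 2077 CPM in the other heated libraries. DESeq2 called 1 gene of this list lower, GolS1, at -0.83 in edgeR and -0.87 ± 0.20 without cr12_control replicate 2. It stood after heat at 488, 754 and 649 CPM in WT, 423 and 433 CPM in cr12 and 378 and 394 CPM in cr2, every line library below WT.

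Genes of folding and of the unfolded protein response in the endoplasmic reticulum (ER) lay lower in 8 of 8 members on the mean over both lines, with a median of -0.28. The regulators among them, bZIP50, bZIP60 and IRE1, had differences of -0.07, -0.25 and -0.05. Of the 8, 5 were lower in both cr12 and cr2, and 4 had a lower heat change in CPM in the lines. The number with every heated line library below WT was 0. BiP1, the HSP70 of the ER, went from 142 ± 19.9 to 3598 ± 51.2 CPM in WT (SD, n = 3). The untreated lines stood higher, with 182 ± 5.94 CPM for cr12 and 202 ± 29.98 CPM for cr2 (SD, n = 2 each), and after heat cr12 overlapped WT and cr2 stood above it. Its difference was -0.42 ± 0.17, and those of the lectin chaperones CNX and CRT were -0.47 ± 0.26 and -0.42 ± 0.13. CRT was called higher in the untreated lines (log2 0.52 ± 0.09, adjusted p = 0.00996) and not after heat (0.10 ± 0.09). Its heat response difference was called lower by DESeq2, the 1 call of this list. The list had 8 of 8 lower without cr12_control replicate 2 (median -0.26) and 7 of 8 without cr12_control replicate 1.

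Of 8 genes of jasmonate synthesis and signalling 7 were higher in the difference, with a median of 0.34, and 6 or 7 were higher with any 1 library left out. MYC2, the transcription factor that JAZ proteins repress, stood after heat at 172, 248 and 249 CPM in WT, 323 and 434 CPM in cr12 and 266 and 239 CPM in cr2, with cr12 above WT and cr2 overlapping it, and its difference was 0.65 ± 0.20 (adjusted p = 0.174). AOC, an enzyme of jasmonate synthesis, had 0.51 ± 0.19, and JAR1, which joins jasmonate to isoleucine, 0.07 ± 0.14. JAZ repressor genes lay 9 higher and 4 lower of 13 with a median of 0.09. The direction turned without single libraries: 8 were lower without WT_heat replicate 1 (median -0.10), 7 without cr12_heat replicate 2 (-0.07) and 7 without cr2_control replicate 2 (-0.01). The median was 0.02 without cr12_control replicate 1, 0.34 without WT_heat replicate 2, 0.22 without cr12_control replicate 2, 0.18 without cr2_control replicate 1 and 0.17 without cr12_heat replicate 1, and lay between 0.06 and 0.14 without any other. JAZ7, JAZ6 and JAZ1, those with the most counts, had differences of 0.33 ± 0.21, 0.08 ± 0.25 and 0.16 ± 0.18. DESeq2 called MYC2 and JAZ3 higher, and JAZ3, with every heated line library above WT, stood at 65.5, 54.6 and 54.6 CPM in heated WT, 89.9 and 119 CPM in heated cr12 and 71.5 and 109 CPM in heated cr2.

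Genes of dividing cells lay higher in 12 of 12 members on the mean over both lines, with a median of 0.73, and 8 were higher in both cr12 and cr2. They code for MCM helicase subunits, which open DNA for replication, the replication clamp PCNA, mitotic cyclins and their kinases. MCM2 stood after heat at 4.9, 3.81 and 9.37 CPM in WT, 18.3 and 12 CPM in cr12 and 17.4 and 23 CPM in cr2 and had a difference of 1.31 ± 0.37 (adjusted p = 0.14 in edgeR). It was the 1 gene of this list that DESeq2 called, as higher. Every heated line library stood above WT, and the heated levels differed by 1.54 ± 0.27 (adjusted p = 0.00954). PCNA, at 11.2, 11.9 and 17 CPM in WT, 27.1 and 15.4 CPM in cr12 and 19.2 and 32.3 CPM in cr2 after heat, overlapped WT in cr12 and not in cr2, with 0.76 ± 0.32, and MCM7 had 0.73 ± 0.37. The summed level of the list ran from 27.8 to 33.2 CPM in untreated WT and from 42.5 to 45.4 CPM in the untreated lines. After heat it ran from 40.4 to 85.1 CPM in WT and from 109.9 to 199 CPM in the lines, with no overlap in either treatment. For 8 of the 12 genes all heated line libraries were above WT, against 8.74% of all tested genes. Without WT_control replicate 3 there were 10 of 12 higher (median 0.51) and without WT_heat replicate 2 there were 11 (0.52). The median was 0.44 without WT_heat replicate 1, with 11 of 12 higher, 0.45 without cr12_heat replicate 1 and 1.23 without WT_heat replicate 3. The part of dividing cells in the called differences was not tested.

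Photosynthetic genes lay 15 lower and 4 higher of 19, with a median of -0.17. It was -0.02 without cr2_control replicate 2, -0.10 without cr12_control replicate 1 or cr12_heat replicate 2, -0.31 without cr2_control replicate 1 or cr12_heat replicate 1, and -0.35 without WT_heat replicate 3. RCA, the activase of Rubisco, fell by 3.27 in WT and by 3.69 in the lines on the log2 scale, a difference of -0.42 ± 0.29. LHCA3, at -0.82 in edgeR, was the 1 photosynthetic gene that DESeq2 called, as lower. Clock genes lay 8 lower and 1 higher (median -0.16, and -0.10 without cr12_control replicate 2), and LHY, a morning-phased clock gene, had log2 heat changes of -5.04 in WT and -5.06 in the lines, with a difference of -0.02 ± 0.14. Cold and drought regulators lay 6 lower and 3 higher (median -0.09, ranging from -0.72 without WT_control replicate 2 to 0.02 without WT_heat replicate 2). Among them DIP1, a dehydration-induced gene, had the smallest adjusted p in edgeR, at -1.13 ± 0.21 (adjusted p = 0.0577; 0.0446 for cr12 alone), and DESeq2 called it lower. It stood after heat at 958, 1338 and 976 CPM in WT, 632 and 556 CPM in cr12 and 762 and 642 CPM in cr2, every line library below WT. Antioxidant genes lay 6 lower and 3 higher (median -0.03, of the other sign with library size alone) and senescence genes 2 and 2 (median -0.03, ranging from -0.26 without cr2_control replicate 2 to 0.24 without cr2_control replicate 1). Of 3 root genes 2 were lower (median -0.64), and DESeq2 called 1 of them lower, LOC_Os01g20160, at -1.71 in edgeR. The 2 tested meristem genes were both higher, OSH15 being near 0 counts in every library.

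Genes were also grouped by the size of the heat response, taken as the mean of the WT and line log2 changes. The 205 genes with a mean response above 6 had a median difference of -0.44, with 63.4% lower and 0 called by edgeR. The 77 of them with a mean of at least 5 CPM had a median of -0.23, with 67.5% lower. At that level 56.8% of the 11730 genes with a mean response between -1 and 1 were lower. Without cr12_control replicate 2 the median of all genes with a mean response above 6 was 0.06, with 47.3% lower, and without cr2_control replicate 1 it was -0.09. It was -0.84 without WT_control replicate 2, -0.26 without WT_heat replicate 2, -0.28 without cr12_heat replicate 1 and -0.29 without cr12_control replicate 1. In the 18514 genes with a mean response between -1 and 1 the median was -0.02, with 52.3% lower, and 19 of the 33 called genes lay there. For genes with a mean response below -4 the sign depended on the low counts, with a fitted median of 0.78 over 571 genes and -0.11 over the 71 with at least 5 CPM.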

How the data were processed

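RNA of rice leaves was sequenced in 14 libraries, grouped by the genotype and treatment labels, with replicates numbered in accession order. The deposited values are estimated counts per gene, whole numbers in 1 table. The submitters' processing notes list StringTie 1.3.3b, the aligner HISAT2 2.1.0, the read trimmer fastp 0.20.1 and DESeq2. No source used here gives the genome build. A total of 185 IDs that are not locus IDs were kept in the table.

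Genes were filtered with filterByExpr over the 6 groups, which left 28823 genes with 99.99% of all counts. Group means were fitted with edgeR 4.0.16 (TMM, quasi-likelihood F test) in R 4.3.3, with Benjamini-Hochberg adjustment over all tested genes at 0.05, and the SE was taken as the absolute log2 value over the root of F. DESeq2 1.42.0, limma voom 3.58.1, other scalings, filters and left-out libraries were alternatives, and the scripts were tested on simulated data. A group under 3 fragments, 12 counts over its libraries, was below the floor. CPM values of different genes are not corrected for length, so levels were not compared between genes.

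Named genes are listed genes that were called, the 3 called genes of smallest adjusted p in each direction, and in each class up to 4 called genes of largest difference. These 4 needed a group mean of at least 5 CPM, the same sign in each line, and no overlap with WT in the group pair that differs most. Of uncalled listed genes up to 3 per list are examples, those of highest mean CPM. The members, the lists and the tests were chosen with earlier results of these data known. List IDs were written from general knowledge; 101 of 135 symbols were found in the RefSeq name table (assembly ASM3414082v1), all on the chromosome of the ID. No sequence was available to print.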

Additional observations from a re-analysis of the deposited data

Results flagged for a closer look

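The heat response difference itself compares the same contrast in different genotypes, and its test passed for 33 genes. The numbers of calls under other tools and without single libraries are given with the main count.

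The heat response of LOC_Os07g48280 differed between the mutant lines, by 1.49 on the log2 scale for cr12 minus cr2, in a test of that difference over all genes. Its untreated cr2 libraries, at 32.5 and 34.4 CPM, were about as high as heated cr12, at 29.2 and 34.4 CPM.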

How the results depend on the processing

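Counts of calls moved with most settings. The order is all calls, higher, lower, weaker, stronger, opposite, changed-baseline. DESeq2 gave 1249, 510, 739, 416, 442, 32 and 359, with 12 listed genes, and 1629 for cr12, 519 for cr2 and 545 between the lines. limma voom gave 10 in all, 4 higher, 6 lower, 4 weaker, 2 stronger and 2 changed-baseline, with 0 for cr2 and 2 between the lines. RLE size factors gave 12 in all, 3 higher, 4 weaker, 1 stronger and 5 changed-baseline. Without the filter on low counts the counts were 126, 70, 56, 41, 26, 8 and 51, with 2 listed genes, 40 for cr2 and 22 between the lines. With a filter at 5 CPM in 2 libraries they were 166, 102, 64, 49, 43, 10 and 64, with 2 listed genes, 338 for cr12 and a root median of -0.27. Counts divided by 4 gave 50 in all, 32 higher, 7 opposite and 3 between the lines, and library size alone 3 between the lines. With the lines pooled as 1 genotype all 7 counts were 0 in edgeR, beside 2829 genes at an unadjusted p under 0.05, and the median of other heat-inducible genes was -0.058. Leaving out cr2_control replicate 2 and WT_heat replicate 2 together gave 6 lower, 3 stronger, 4 opposite, 7 changed-baseline, 236 for cr12, 4 between the lines and an antioxidant median of 0.13. The groups of cr12 and WT alone gave 8 for cr12, and those of cr2 and WT 0 for cr2. With a difference of at least 1 required there were 3 stronger genes, and with the heated difference not called 7 changed-baseline genes. The cause of these shifts was not tested.

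Leaving out 1 library at a time, the calls ranged from 0 to 84, higher from 0 to 27, lower from 0 to 57, weaker from 0 to 27, stronger from 0 to 35, opposite from 0 to 10 and changed-baseline from 0 to 24. Listed calls ranged from 0 to 3, cr12 from 0 to 188, cr2 from 0 to 10 and the line difference from 1 to 18. Medians ranged from -1.11 to -0.040 for small heat shock proteins, -0.48 to 0.18 for HSP100, -0.54 to 0.13 for other heat-inducible genes, -0.72 to 0.023 for cold and drought regulators and -0.26 to 0.24 for senescence. For genes with a mean response below -4 the median ranged from 0.52 to 1.76. It was 0.13 with the floor, -0.11 with at least 5 CPM with or without it, and -0.089 with no group under the floor. In CPM the difference reversed for LOC_Os03g04530 (12.5 CPM) and LOC_Os05g13360 (3.19 CPM). No paired analysis was possible because the labels give no replicate numbers.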
